A study of Mus musculus with 6 samples.

Results

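The comparison described here sets macrophages labelled as Trib1 knockout against wild-type macrophages, both after treatment with lipopolysaccharide (LPS, a cell wall component of Gram-negative bacteria). It rests on 4 of the 6 one-colour Affymetrix mouse arrays of the series, chosen by their titles: 2 arrays of wild-type and 2 of knockout macrophages, numbered 1 and 2 in each genotype. They are called wild type 1, wild type 2, knockout-labelled 1 and knockout-labelled 2. The other 2 arrays, wild-type macrophages with medium (n = 1) or LPS (n = 1), define LPS-inducible genes per the series description and are called the LPS pair. They stayed out of the comparison and serve only to show where a level lies. The labels give no tissue source of the macrophages, strain, sex, age, LPS dose, time or part of Trib1 that was deleted. Whether the arrays of 1 genotype stand for separate mice or cultures is not stated, so tests measure only the spread between these samples.

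Trib1 is a pseudokinase: it has a kinase-like fold but works as a scaffold that brings C/EBP transcription factors to the ubiquitin ligase COP1, which marks them for degradation. C/EBP factors drive many genes of granulocytes and of activated macrophages, among them genes for acute phase proteins, antimicrobial granule proteins and prostaglandin synthesis. LPS is sensed through Toll-like receptor signalling, which turns on NF-kB, MAP kinase and interferon target genes. The comparison therefore asks which LPS-treated macrophage transcripts differ when Trib1 is missing.

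Values are scaled intensities, the deposited array values brought to a common trimmed mean of 234, on which an array's brightness for 1 probe set cannot be set against that of another. Values under 29.9 (the 40th percentile over the 6 arrays) were treated as not measurable and set to that floor before log2 was taken. The floor was passed by 58.6% to 63.0% of probe sets on the 4 arrays, and 29078 probe sets above it on at least 2 arrays were tested, which name 13934 genes. Across these probe sets, arrays with the same number were the most alike: the Pearson correlation was 0.967 between wild type 1 and knockout-labelled 1 and 0.961 between wild type 2 and knockout-labelled 2. It was 0.955 between the wild-type arrays and 0.957 between the knockout-labelled ones. The labels do not say what the number stands for.

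Trib1 itself did not check the labels. On probe set 1424880_at, wild type 1 and 2 measured 17.9 and 17.5, knockout-labelled 1 measured 88.1 and knockout-labelled 2 measured 20.9, so only 1 of the 4 arrays lay above the floor and it carried the knockout label. The wild-type arrays of the LPS pair measured 383 with medium and 189 with LPS on this probe set, far above wild type 1 and 2. Why these wild-type arrays differ was not tested. Probe set 1424881_at gave 20.2 and 63.0 in wild type, against 32.3 and 38.7 with the knockout label, with groups that overlap (log2 difference -0.30, SE 0.42; limma, Benjamini-Hochberg adjusted p = 0.999). Where either probe set lies relative to the deleted part is not given. Every direction below therefore rests on the labels. Among 300 genes around Trib1 on chromosome 15, 69 were measured, none was at least 2-fold apart between the groups on all arrays, and their median log2 difference was 0.01, as over all genes.

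Limma found 0 probe sets above and 0 below wild type at a threshold of 0.05 after Benjamini-Hochberg adjustment (0.0% of 29078), and the smallest adjusted p was 0.216. At an unadjusted p under 0.05, 663 were higher and 788 lower. The smallest two-sided p that an exact permutation test allows in this design is 0.333. Without wild type 1, 5 were higher and 0 lower. Without wild type 2 the counts were 12 and 0, without knockout-labelled 1 they were 19 and 9, and without knockout-labelled 2 they were 36 and 32. Since no gene passed this fit, levels below are described by a rule of size: a probe set is called apart where both knockout-labelled arrays lie at least 2-fold above, or below, both wild-type arrays after the floor. This held for 113 probe sets above (0.389%) and 96 below (0.33%). With 1 probe set per gene, the one with the highest mean, it held for 66 genes above (0.474%) and 44 below (0.316%). In 10 of the 66 and 13 of the 44, 1 whole group lay under the floor, beside 375 of 13934 genes. Those entered the test through the other group alone. Groups that do not overlap at any distance were found for 2348 genes above (16.9%) and 2194 below (15.7%). Over all 13934 genes the median log2 difference was 0.01, with 7118 genes above 0 and 6816 (48.9%) below. List counts given below are to be read beside these shares. With 1 array left out the rule has fewer arrays to meet and held for more probe sets. List counts from such settings therefore cannot be set beside those from all arrays.

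The leading genes above wild type had varied roles, among them secreted proteins, surface receptors, enzymes, an adaptor and a ribosomal protein. Wfdc21, a small secreted protein of the WAP domain family, measured 46.5 and 76.6 in wild type, against 1053 and 994 with the knockout label. The difference was 17.1-fold (log2 4.10, SE 0.32; limma adjusted p = 0.216). S100a8, a calcium-binding subunit of calprotectin, had the smallest p (log2 2.69, SE 0.17, adjusted p = 0.216). In both genes the 2 arrays of a genotype lay close together and far from the other genotype. Selection by the rule and by p favours such genes.

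Glrx, a glutaredoxin that removes glutathione from protein thiols, measured 457 and 774 in wild type, against 2452 and 3049 with the knockout label (log2 2.20, SE 0.29). Stab1, the scavenger receptor stabilin, measured 143 and 92.5 in wild type, against 549.8 and 552 with the knockout label (log2 2.26, SE 0.30). Cd24a, a lipid-anchored surface glycoprotein, measured 293 and 266 in wild type, against 925 and 769 with the knockout label (log2 1.59, SE 0.22). The knockout-labelled arrays were the higher ones in all 3, with no overlap, as the rule that picked them requires. Ereg, the EGF receptor ligand epiregulin, was under the floor on wild type 1 (21.4) and near it on wild type 2 (47.8), against 262 and 265 on the knockout-labelled arrays (log2 2.80, SE 0.39). Dusp6, a phosphatase that switches off ERK, measured 191 and 166 in wild type, against 522 and 659 with the knockout label (log2 1.72, SE 0.25). The adjusted p of these 5 genes was 0.766.

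Others in this group were Emp1, an epithelial membrane protein (log2 2.16), the adaptor gene Rusc1 (3.34), Tlr2 (1.74), Hp (2.39) and Ptges (1.67). Lox, the lysyl oxidase that crosslinks collagen, measured 31.2 and 6.58 in wild type, against 291 and 130.03 with the knockout label (log2 2.67). Rps4l, a ribosomal protein gene, was under the floor on both wild-type arrays and reached 257 and 168 on the knockout-labelled arrays, at least 6.96-fold higher. S100a9, the partner of S100a8 in calprotectin, was also under the floor on both wild-type arrays (11.5 and 8.10), and its knockout-labelled values were 6906 and 206. This makes it at least 39.9-fold higher, but with 2 knockout-labelled values so far apart its SE was 1.53 and its adjusted p 0.928. Mtg2, a GTPase of the mitochondrial ribosome, stood at 28.4 and 34.7 against 194 and 139 on 1 probe set (log2 2.35) and at a log2 difference of -1.21 on its other one.

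**Figure D1:**
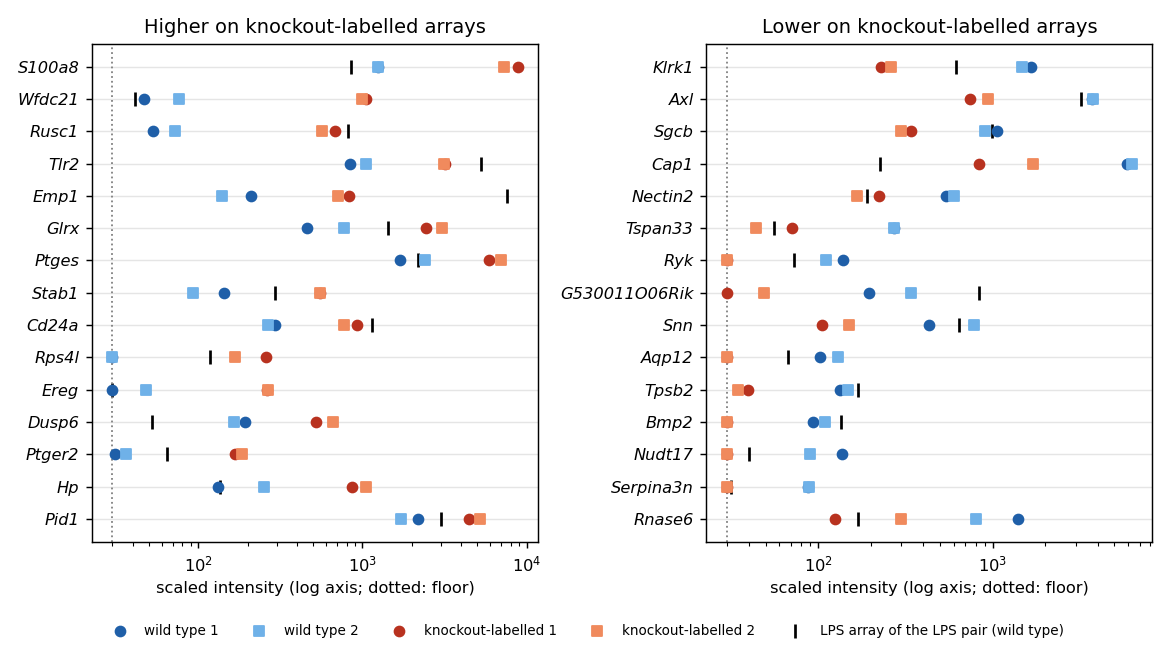
Scaled intensity (log axis) of the 15 genes in each direction with the smallest limma p among those at least 2-fold apart on all arrays, 1 probe set per gene; circles and squares are arrays 1 and 2, blue wild type and red or orange knockout-labelled, black bars the array with LPS from the LPS pair, and the dotted line the floor of 29.9. In every row the red and blue points are separate, as the rule that picked the genes requires. The black bar lies on either side: for Emp1 it is at 7611, beyond the knockout-labelled arrays, and for Wfdc21 at 40.9, beside wild type.

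Genes with several probe sets give a second measurement of the same transcript on the same arrays. By any probe set, 85 genes were at least 2-fold apart above wild type and 43 of these had at least 2 tested probe sets. In 11 genes at least 2 probe sets met the rule. All tested probe sets met it for Acpp, an acid phosphatase (3 of 3, log2 1.75 to 2.39), Arg2, the mitochondrial arginase (2 of 2, 2.80 to 2.86), Cd24a (3 of 3, 1.59 to 1.94), Glrx (2 of 2, 2.20 to 2.44), Lox (2 of 2, 2.61 to 2.67), Ptges (3 of 3, 1.67 to 1.73) and Zdhhc2, a palmitoyltransferase (4 of 4, 1.46 to 2.11). Gja1, the connexin of gap junctions, had 5 of 6 (1.55 to 2.79, the last at 0.98). Fcgr2b, the inhibitory Fc receptor, had 3 of 4 (2.20 to 2.42), and its brightest probe set stood at 1.09. Plet1 had 2 of 3 (1.35 and 2.13, the last at 0.95) and Pid1 2 of 3 (1.32 and 1.53, the last at -0.05). Of 74 genes below wild type, 40 had at least 2 tested probe sets, and 2 of them had at least 2 that met the rule: Cap1, an actin-binding regulator (2 of 2, -2.39 and -2.36), and Tspan33, a tetraspanin (3 of 4, -2.27 to -1.46). For Rusc1 only 1 of 5 tested probe sets met the rule and the lowest stood at -0.22. That probe set ends in _x_at, as do those used for Gja1 and Tspan33, and that of S100a8 ends in _s_at, which mark probes that can bind related transcripts.

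C/EBP target genes lay mostly above wild type. Of 22 listed genes 20 were measured, and 6 were at least 2-fold apart above (Ptges, Hp, Csf3, Serpinb2, Camp and Lcn2) against 0.474% of all genes. In the other direction 1 was apart (Ltf), against 0.316%. Camp was under the floor on both wild-type arrays. It entered the test through the knockout-labelled arrays alone and could only be counted as above. In all, 18 of 20 had a log2 difference above 0 and the median was 0.46. The median was 0.57 without wild type 1, 0.64 without wild type 2, 0.27 without knockout-labelled 1 and 0.68 without knockout-labelled 2, with 5 to 8 genes apart above. Orm1 was under the filter, with 95.04 on knockout-labelled 1 as its single value above the floor, and C3 had no probe set naming it alone here.

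Ptges, the inducible prostaglandin E synthase, measured 1693 and 2396 in wild type, against 5922 and 6979 with the knockout label. The groups were separate on each of its 3 probe sets. Serpinb2, an inhibitor of plasminogen activators, measured 327 and 569.9 in wild type, against 1391 and 2771 with the knockout label (log2 2.19, SE 0.42). Its wild-type levels lay under the 595 of the medium array, and the array with LPS from the LPS pair stood at 10077. Camp, the cathelicidin antimicrobial peptide of granules, was under the floor on both wild-type arrays (11.04 and 7.03) and measured 219.9 and 66.9 on the knockout-labelled arrays, at least 4.06-fold higher. Lcn2, the siderophore-binding lipocalin, measured 3714 on wild type 1 but 395 on wild type 2, and 15576 and 7749 on the knockout-labelled arrays (log2 3.18, SE 1.02). The spread between the wild-type arrays was thus larger than the gap from wild type 1 to knockout-labelled 2. Hp, haptoglobin, and Csf3, the granulocyte growth factor, stood at log2 differences of 2.39 (SE 0.35) and 2.64 (SE 0.40).

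The other direction was seen for Ltf, the granule protein lactoferrin, at 87.00 and 87.2 in wild type, against 40.2 and 12.7 with the knockout label (log2 -1.33, SE 0.34). Il12b, a subunit of interleukins that direct T cells, measured 15341 and 14355 in wild type, against 8829 and 9118 with the knockout label (log2 -0.73, SE 0.16, adjusted p = 0.872), with separate groups less than 2-fold apart. Cd14, the LPS co-receptor, lay above wild type on both arrays (13871 and 14874 against 23075 and 19999; log2 0.58, SE 0.17). Arg1, the cytosolic arginase, measured 1135 and 250.1 against 4767 and 1626 (log2 2.39, SE 0.81). For Il10, an anti-inflammatory cytokine, the values were 56.6 and 53.6 against 225 and 65.2 (log2 1.14). The remaining targets stood between 0.12 and 0.46 on the log2 scale: Cebpb (0.45), Ngp (0.46), Ptgs2 (0.34), Csf3r (0.31), Il1rn (0.30), Saa3 (0.21), Ccl2 (0.19), Il6 (0.14) and Cebpd (0.12). Of these, the groups were separate only for Csf3r and Il1rn.

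Promoter sequence is shown for the C/EBP targets at least 2-fold apart above wild type that the RefSeq promoter table holds, since C/EBP binding would be sought there. These are the 250 bases before the annotated start, on build GRCm38.p6, written 5′ to 3′ on the gene's strand. Capitals mark matches to TTNNGNAA, a loose form of the C/EBP core searched on both strands. The windows are chr2:30903298-30903547 (minus strand) for Ptges, chr1:107511173-107511422 (plus strand) for Serpinb2, chr9:109849457-109849706 (minus strand) for Camp and chr2:32387740-32387989 (minus strand) for Lcn2.
Ptges: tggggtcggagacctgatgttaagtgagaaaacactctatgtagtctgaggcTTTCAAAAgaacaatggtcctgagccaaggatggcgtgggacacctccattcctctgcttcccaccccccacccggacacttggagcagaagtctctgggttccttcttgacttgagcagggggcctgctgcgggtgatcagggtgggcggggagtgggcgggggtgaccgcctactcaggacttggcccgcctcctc
Serpinb2: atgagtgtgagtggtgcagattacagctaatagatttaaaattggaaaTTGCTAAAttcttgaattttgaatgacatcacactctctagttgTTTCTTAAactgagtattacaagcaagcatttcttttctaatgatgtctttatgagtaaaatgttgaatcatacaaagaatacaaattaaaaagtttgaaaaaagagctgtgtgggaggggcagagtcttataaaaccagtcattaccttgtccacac
Camp: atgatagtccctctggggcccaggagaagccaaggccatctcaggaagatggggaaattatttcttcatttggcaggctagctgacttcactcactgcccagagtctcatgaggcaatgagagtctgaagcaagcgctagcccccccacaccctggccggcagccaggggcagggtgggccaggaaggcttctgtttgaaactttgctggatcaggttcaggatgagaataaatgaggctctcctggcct
Lcn2: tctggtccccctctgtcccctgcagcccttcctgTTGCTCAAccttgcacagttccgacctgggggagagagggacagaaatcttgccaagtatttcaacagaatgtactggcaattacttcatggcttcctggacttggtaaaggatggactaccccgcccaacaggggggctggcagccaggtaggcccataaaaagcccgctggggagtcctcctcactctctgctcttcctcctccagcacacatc
Ptges holds 1 match, which begins 198 bases before the start, Serpinb2 holds 2, at 202 and 158 bases, Lcn2 holds 1, at 216 bases, and Camp holds none. The table also has a later start for Serpinb2, with matches 245 and 19 bases before it, of which the first is the second match of the window shown. Of the 13 measured C/EBP targets in the table, 9 (69.2%) held a match in 250 bases, against 3793 of 11195 measured genes (33.9%) and 36.8% of all 32851 promoters. Among genes at least 2-fold apart, 21 of 50 above wild type (42.0%) and 13 of 34 below (38.2%) held one. A match is a description of the letters in the window.

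The Tribbles and C/EBP genes themselves, with the ubiquitin ligase partners, had no member apart by the rule. None of 16 measured genes met it, 12 lay above 0, and the median was 0.06. Cebpa, the C/EBP factor of granulocyte development, measured 656 and 356 in wild type, against 723 and 370.2 with the knockout label, so it followed the array number and not the genotype (log2 0.10, SE 0.43). Cebpb, a C/EBP factor of activated macrophages, showed the same order with wider steps, at 8650.2 and 5912 against 11914 and 8046 (log2 0.45). Within each number its knockout-labelled array was the higher one, though the groups overlapped. Its other probe set stood at 0.96. Cop1, the ligase that Trib1 binds, was lower on both knockout-labelled arrays by a small margin (3627 and 3795 against 2989.9 and 3206; log2 -0.26, SE 0.16). Trib3, a pseudokinase of the same family, measured 54.5 and 60.4 against 73.1 and 75.3 on its brightest probe set (log2 0.37) and stood at 1.42 on its other one, which met the rule.

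**Figure D2:**
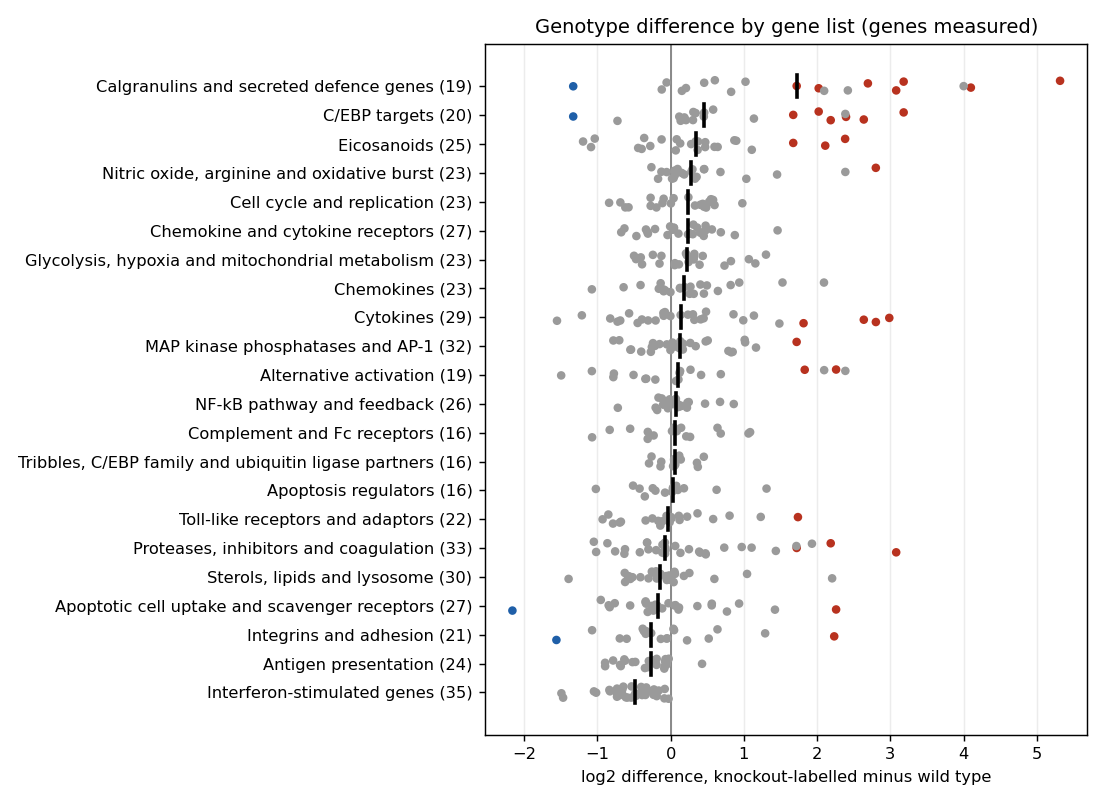
Log2 difference, knockout-labelled minus wild type, of every measured gene of the 22 functional lists, 1 point per gene, with the number measured in parentheses; black bars are list medians, and red and blue points are genes at least 2-fold apart above and below on all arrays. Calgranulins and secreted defence genes have the highest median (1.72) and interferon-stimulated genes the lowest (-0.48).

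Calgranulins and secreted defence genes, the proteins of neutrophil granules and of activated macrophages, had the highest median of the lists, 1.72. Of 19 measured, 7 were at least 2-fold apart above (S100a8, S100a9, Wfdc21, Mmp8, Mmp9, Camp and Lcn2), beside 0.474% of all genes. Ltf was below, and 16 lay above 0, beside 7118 of 13934 genes. Mmp8, the neutrophil collagenase, measured 212 and 122 in wild type, against 2587 and 714 with the knockout label (log2 3.08, SE 0.63). Mmp9, a gelatinase, measured 161 and 93.9 in wild type, against 502 and 328 with the knockout label (log2 1.72, SE 0.39). Slpi, a secreted protease inhibitor, and S100a6, a calcium-binding protein, also had separate groups, at 5174 and 6605 against 9941 and 14180.4 (log2 1.02, SE 0.24) and 4421 and 5004 against 6664 and 7667 (log2 0.60, SE 0.17).

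Several of these transcripts varied by array within a genotype. Chil1, a chitinase-like protein, measured 33.5 on wild type 1 and 5279.8 on wild type 2, against 3893 and 11662, so the groups overlapped. Chil3, another chitinase-like protein, measured 2097 and 444 against 10591 and 1606 and overlapped too. Stfa2l1, a stefin, was under the floor on both wild-type arrays and measured 548 and 46.6 on the knockout-labelled ones. The lysozyme genes, bright on all 4 arrays, did not follow the genotype: Lyz2 was 20528 and 21862 against 20982 and 19812 (log2 -0.06). Without wild type 1 the list median was 0.85, without wild type 2 it was 1.33, and without knockout-labelled 1 or 2 it was 0.97 or 1.03. S100a9, Camp and Stfa2l1 entered the test through the knockout-labelled arrays alone.

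Neutrophil markers moved with this list, and all 7 of their genes at least 2-fold apart belong to both. The markers summed to 7625 and 3715 in wild type, against 37283 and 18680 with the knockout label. On the knockout-labelled arrays most of this was Lcn2 (15576 and 7749) and S100a8 (8853 and 7314). In the LPS pair Lcn2 was 11.2-fold higher with LPS than with medium. Of 11 measured, 6 were apart above (S100a8, S100a9, Mmp8, Mmp9, Camp and Lcn2), beside 0.474% of all genes, and 1 below (Ltf). S100a9 and Camp entered the test through the knockout-labelled arrays alone and could only be counted as above. The list median was 1.72 and 10 lay above 0, beside 7118 of 13934 genes. Without knockout-labelled 1 the median was 0.27 and 4 of 9 measured were apart above. Of the other markers, Elane, neutrophil elastase, was 64.4 and 77.7 against 87.2 and 74.5 and Mpo, myeloperoxidase, 68.6 and 95.5 against 90.1 and 87.7, both with overlap. Ngp, a granule protein, was 99.9 and 80.01 against 219 and 68.7, highest on knockout-labelled 1 and lowest on knockout-labelled 2. Cxcr2, the chemokine receptor of neutrophils, was above the floor only on knockout-labelled 1 (32.6). In such samples fewer cells of a type and less RNA per cell cannot be told apart. The part of neutrophils in these differences was not tested.

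Among cytokine genes, 4 of 29 measured were at least 2-fold apart above wild type, beside 0.474% of all genes, and none below. Of the 29, 15 lay above 0 and 14 below (median 0.14). The median was -0.16 without wild type 1 and 0.59 without wild type 2, and with 1 array left out 4 to 8 were apart above and 0 to 3 below. Beside Ereg and Csf3 these were Il1f9, which encodes interleukin-36 gamma, and Il23a, a subunit of interleukin-23. Il1f9 measured 139 and 531 in wild type, against 2594 and 1784 with the knockout label (log2 2.99, SE 0.62). Il23a measured 73.7 and 129 in wild type, against 434 and 272 with the knockout label (log2 1.81, SE 0.41), and its partner subunit gene Il12b lay on the other side. The LPS array of the LPS pair was at 118 for Il1f9 and under the floor for Il23a. Il1f6, interleukin-36 alpha, also had separate groups (217 and 419 against 971 and 733; log2 1.49, SE 0.36), while Il6 overlapped (8096 and 15859.7 against 11625 and 13347).

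No chemokine (23 measured, median 0.19) or chemokine or cytokine receptor (27 measured, median 0.24) was 2-fold apart. The chemokine median was -0.07 without wild type 1, and with 1 array left out 1 to 4 chemokines were apart above and 0 to 1 below. Cxcl3, a neutrophil chemoattractant, measured 2305 and 2114 in wild type, against 10184 and 3977 with the knockout label (log2 1.53, SE 0.43), and Cxcl5, of the same family, 27.99 and 123 against 139 and 482 (log2 2.09, SE 0.86). Ccl22, which attracts T cells, lay below wild type (1962 and 1119.7 against 911 and 543; log2 -1.08, SE 0.37). Of the receptors, Ccr1 measured 1062 and 662 in wild type, against 3315 and 1605 with the knockout label (log2 1.46) and Il17ra 897 and 1404 against 2348 and 1807 (log2 0.88). Il10ra, the receptor for interleukin-10, stood at -0.67 on its brighter probe set and at 1.06 on the other.

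Eicosanoid genes had 3 of 25 members at least 2-fold apart above (Ptges, Ptger2 and Ltb4r1), beside 0.474% of all genes, and none below. Above 0 lay 17 (median 0.34, but 0.20 without wild type 1 and 0.17 without knockout-labelled 2). Ptger2, a receptor for prostaglandin E, the product of Ptges, measured 31.1 and 36.2 in wild type, against 166 and 184 with the knockout label (log2 2.38, SE 0.35, adjusted p = 0.766). Ltb4r1, the leukotriene B receptor that draws in neutrophils, measured 314 and 114 in wild type, against 1002 and 669 with the knockout label (log2 2.11, SE 0.51). Ptgs2, the inducible cyclooxygenase upstream of Ptges, overlapped between the groups (7884 and 12206 against 13206 and 11701; log2 0.34). Tbxas1, the thromboxane synthase, lay on the other side, at 1019 and 884 against 490.4 and 437 (log2 -1.04, SE 0.20), and Alox15, a lipoxygenase of resident macrophages, at 90.1 and 110.2 against 35.3 and 62.4 (log2 -1.09). Tbxa2r, the thromboxane receptor, stood at 1.11.

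In the list of nitric oxide, arginine and oxidative burst genes 19 of 23 lay above 0, beside 7118 of 13934 genes. The median was 0.28, but 0.13 without wild type 1 and 0.17 without knockout-labelled 1. Arg2 was at least 2-fold apart. Arg2 measured 559.9 and 212 in wild type, against 2807 and 2055 with the knockout label (log2 2.80, SE 0.47), and its 2 probe sets gave nearly the same difference. Hmox1, haem oxygenase, was close to the rule, at 1803 and 1556 against 3321 and 3540.4 (log2 1.03, SE 0.17, adjusted p = 0.766). Slc7a11, the cystine transporter, measured 468 and 1102 against 2429 and 1593 (log2 1.45, SE 0.44), and Nos2, the inducible nitric oxide synthase, 4615 and 8729 against 10295 and 10048 (log2 0.68, SE 0.31). Groups were separate above for 10 of the 23 (43.5%, beside 16.9% of all genes), among them the 4 genes named here. They were separate below for 1 (4.35%, beside 15.7%).

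Of the sensing and signalling lists, only Tlr2 and Dusp6 were at least 2-fold apart. Among 22 Toll-like receptor and adaptor genes 10 lay above 0 and 12 below (median -0.03). Irak3, a brake on Toll-like receptor signalling, measured 1394 and 890.5 in wild type, against 2698 and 2533 with the knockout label (log2 1.23, SE 0.25), and Cd180, a Toll-like receptor homologue of B cells and macrophages, 996 and 975 against 521 and 574 (log2 -0.85, SE 0.18). Tlr9, a sensor of CpG DNA, and Tlr1, a partner of Tlr2, lay below wild type (log2 -0.93 and -0.69), so Tlr2 stood apart in direction from both. Among 26 NF-kB genes (median 0.07) Zc3h12a, an RNase that limits cytokine messages, measured 966 and 1041 against 1791 and 1854 (log2 0.86, SE 0.17), and Birc2, a ubiquitin ligase of the pathway, 746 and 699 against 438 and 438 (log2 -0.72). Among 32 MAP kinase phosphatase and AP-1 genes (median 0.13) Dusp4 stood at 1.17, Ier3 at 0.85 and Fosl1 at 1.01, against -0.78 for Egr2 and -0.70 for Dusp2. In these 5 genes too the groups were separate. Of the 32, groups were separate above for 4 (12.5%, beside 16.9% of all genes) and below for 6 (18.75%, beside 15.7%).

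Genes below wild type were led by receptors and by genes of several unrelated roles. Klrk1, an activating receptor of NK cells, and Axl, a receptor for apoptotic cells, had the smallest p (log2 -2.68, SE 0.20, adjusted p = 0.216, and -2.16, SE 0.19, adjusted p = 0.281). Cap1 measured 5909.5 and 6317 in wild type, against 835 and 1702 with the knockout label (log2 -2.36, SE 0.34). Rnase6, an antimicrobial ribonuclease, measured 1397 and 806 in wild type, against 126 and 301 with the knockout label (log2 -2.45, SE 0.48). In the LPS pair, the array with LPS had Cap1 at 225, under all 4 arrays, and Rnase6 at 169.5, between the knockout-labelled values. Sgcb, a sarcoglycan of the membrane, measured 1062 and 902 against 342 and 299.5 (log2 -1.61, SE 0.21). Snn, the small membrane protein stannin, measured 435 and 787 against 105 and 151 (log2 -2.22, SE 0.38). Only 1 of 3 tested probe sets met the rule for Sgcb (-1.61 to -0.92) and 1 of 2 for Snn (the other at -0.88).

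In 5 of the 15 leading genes below wild type both knockout-labelled arrays were under the floor, so only a bound can be given. Ryk, a Wnt co-receptor, was at least 4.16-fold lower (139 and 111 on the wild-type arrays), Aqp12, an aquaporin, at least 3.85-fold (102 and 129.5), Nudt17 at least 3.73-fold (138 and 90.2), Bmp2, a bone morphogenetic protein, at least 3.38-fold (93.4 and 109) and Serpina3n, a serine protease inhibitor, at least 2.95-fold (87.8 and 88.6). The wild-type levels of these 5 lay between 87.8 and 139, not far above the floor. Armcx6 measured 146 and 360.3 against 37.7 and 45.2 (log2 -2.48), and G530011O06Rik 195 and 341 against 22.4 and 49.03 (log2 -2.75). Nectin2, an adhesion protein, and Tspan33 stood at -1.56 and -2.27.

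Mast cell transcripts were among the genes below wild type. Of 7 measured markers of eosinophils and mast cells, 4 were at least 2-fold apart below, beside 0.316% of all genes, and none above. With the floor at the 60th percentile 3 were measured and 2 apart. Tpsb2, a mast cell tryptase, measured 134 and 148 in wild type, against 39.7 and 34.6 with the knockout label (log2 -1.93, SE 0.35). Its other tested probe set stood at -0.44 and did not meet the rule. Cma1, the chymase, measured 175 and 287 against 11.5 and 58.3 (log2 -2.43, SE 0.49), and Cpa3, the mast cell carboxypeptidase, 297 and 367 against 47.8 and 118 (log2 -2.14, SE 0.49). Fcer1a, the IgE receptor chain, was under the floor on both knockout-labelled arrays (at least 2.26-fold lower) and entered the test through the wild-type arrays alone. Kit, the mast cell growth factor receptor, and Prg2, of eosinophils, overlapped between the groups, with signs that turned with the scaling or the floor. Hdc, which makes histamine, was above the floor only on knockout-labelled 1 (373). The list summed to 861 and 1274 in wild type, against 666 and 434 with the knockout label.

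Markers of NK and T cells lay lower in the same direction as Klrk1. Of 20 on the array 13 were measured, of which 10 lay below 0 and only Klrk1 was at least 2-fold apart (median -0.53). The median was -0.21 without knockout-labelled 1, and 3 were apart below without wild type 1 or without knockout-labelled 2. Gzma, a granzyme, measured 121 and 170.2 against 36.3 and 87.3 (log2 -1.35), and Ms4a4b, a lymphocyte membrane protein, 142 and 216 against 54.5 and 91.4 (log2 -1.31). The T cell receptor chains Cd3g and Cd3d and the NK genes Nkg7 and Klre1 were at or near the floor on all 4 arrays. Ncr1, an NK receptor, measured 37.5 and 51.8 against 39.4 and 55.1, and Cd8a 87.7 and 144 against 133 and 146, with overlap. The summed intensity was 2595 and 2736 against 929 and 1106, most of it from Klrk1 on the wild-type arrays. B cell markers lay lower too (8 of 10 below 0, median -0.79), led by the immunoglobulin chain gene Ighm (512 and 676 against 187 and 267; log2 -1.40, SE 0.29; 7 probe sets from -1.40 to 0.02), with sums of 2353 and 2658 against 1547 and 2130. The B cell median was -0.43 without wild type 2 and -0.37 without knockout-labelled 1, and 2 and 3 members were apart below without wild type 1 and without knockout-labelled 2. The part of lymphocytes and mast cells in these differences was not tested.

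All 35 measured interferon-stimulated genes, which encode antiviral effectors, had a log2 difference below 0, beside 48.9% of all genes. Their median was -0.48, none was 2-fold apart, and only 9 had separate groups (25.7%, beside 15.7% of all genes). In the genes with the largest differences the groups overlapped. Mx1, a GTPase that blocks viruses, measured 3131 on wild type 1 and 6696 on wild type 2, 749 on knockout-labelled 1 and 3658 on knockout-labelled 2 (log2 -1.47, SE 0.77). Ifit2, an RNA-binding effector, followed the same order (9366 and 16638 against 1914 and 10297; log2 -1.49, SE 0.78), as did Irf7, the factor that amplifies interferon genes (4860.4 and 7159 against 1941 and 5623; log2 -0.84).

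Over the list the median intensity was 4902 and 7159 in wild type, against 2608 and 5767 with the knockout label, so knockout-labelled 2 lay above wild type 1. Within each number the knockout-labelled array was the lower one for 33 of 35 genes, beside 3756 of 13934 genes (27.0%). Without knockout-labelled 1 the median was -0.03, with 19 of 35 genes below 0, and without wild type 2 it was -0.20 with 27 below. It was -0.67 without wild type 1 and -0.87 without knockout-labelled 2. Stat2, a signal carrier of interferon receptors, had separate groups (2658 and 2594 against 1616 and 2036; log2 -0.53, SE 0.19, adjusted p = 0.957), and so did Irf8, a macrophage and dendritic cell factor (10080.0 and 12588 against 9227 and 8017; log2 -0.39).

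Antigen presentation genes lay below wild type by small and more even amounts. Of 24 measured, 23 were below 0 and 15 had separate groups below (62.5%, beside 15.7% of all genes), with a median of -0.27 and none 2-fold apart. H2-DMa, which loads peptides on class II molecules, measured 5837 and 5063 in wild type, against 3566 and 3487 with the knockout label (log2 -0.62, SE 0.17, adjusted p = 0.899). The class II chains H2-Ab1 (9617 and 7237 against 6641 and 4080.3), H2-Aa (11348 and 12996 against 9842 and 7681) and H2-Eb1 (4252 and 6684 against 4241 and 2256) were lower on both knockout-labelled arrays. So were the costimulatory ligand Cd80 (824 and 1477 against 549 and 642; log2 -0.89, SE 0.31) and the checkpoint ligand Pdcd1lg2 (251 and 335 against 188 and 129.97; log2 -0.89, SE 0.32). The class I genes H2-K1, H2-D1 and B2m stood between -0.05 and -0.04, although H2-D1 ran from -0.60 to 0.75 over its 9 tested probe sets, and Psmb10, of the immunoproteasome, was the 1 gene above 0 (0.43). The median stayed between -0.29 and -0.20 in the settings tried, except that it was -0.16 without knockout-labelled 2. Dendritic cell markers lay below 0 in 8 of 12, beside 48.9% of all genes, and above 0 in 4. Their median was -0.17 and none was 2-fold apart. The sums were 4775 and 5654 against 2636 and 3649. Of these, Itgax alone made up 3031 and 4055 against 1244 and 2233 (log2 -1.07). The part of dendritic cells in the class II levels was not tested.

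**Figure D3:**
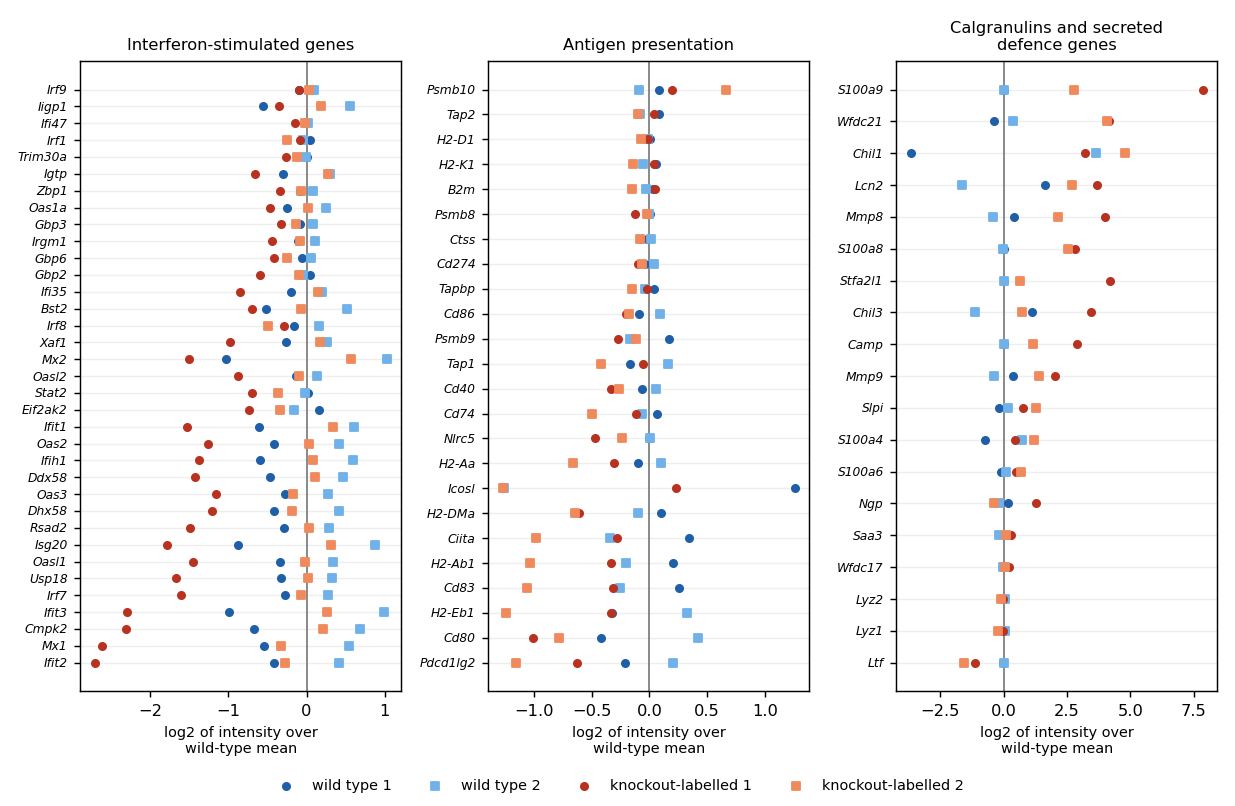
Log2 of each array's floored intensity over the mean of the wild-type arrays for the genes of 3 lists, with circles and squares for arrays 1 and 2, blue for wild type and red or orange for knockout-labelled. Interferon-stimulated genes are spread by array number, with wild type 2 highest and knockout-labelled 1 lowest. Within each number the knockout-labelled array is the lower one for 33 of 35 of them, beside 27.0% of all genes. Antigen presentation genes are spread by small amounts, and defence genes such as S100a8 and Wfdc21 by genotype.

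In the lists of uptake, adhesion and matrix genes single members stood apart in both directions. Among 27 genes for apoptotic cell uptake and scavenger receptors Stab1 was above and Axl below, and 16 lay below 0 (median -0.18). Mertk, the receptor closest to Axl in function, was 8578 and 9271 against 8443 and 8025 (log2 -0.12). Pros1, a bridging protein for Axl and Mertk, measured 1009.6 and 838 against 527 and 428 (log2 -0.95, SE 0.22), and C1qa, a complement opsonin, 4847 and 6165 against 3552 and 2654 (log2 -0.83, SE 0.22). Clec4d, a lectin for mycobacterial lipid, lay above (3654 and 6278 against 14512 and 11389.8; log2 1.42, SE 0.30). Of 21 integrin and adhesion genes Gja1 was above and Nectin2 below, and 14 lay below 0 (median -0.27, but -0.13 without wild type 1 and -0.10 without knockout-labelled 2). Groups were separate above for 3 (14.3%, beside 16.9% of all genes): Gja1, Itgb7 (1.29) and Itgam (0.64). They were separate below for 6 (28.6%, beside 15.7% of all genes): Nectin2, Itgax (-1.07), Itga4 (-0.60), Icam1 (-0.38), Itga5 (-0.35) and Itgal (-0.34).

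Among 33 proteases, inhibitors and coagulation genes Serpinb2, Mmp8 and Mmp9 were apart above (9.09%, beside 0.474% of all genes). Of the list, 16 lay above 0 and 17 below (median -0.07). Adam8, a sheddase, stood at 1229 and 747 against 3659 and 1837 (log2 1.44), and Timp2, a metalloprotease inhibitor, at 6667 and 6218 against 4027 and 3600.3 (log2 -0.76, SE 0.16). Of 19 alternative activation genes 2 were apart above, beside 0.474% of all genes, and 11 lay above 0 (median 0.11). The 2 were Stab1 and F13a1, a coagulation transglutaminase of macrophages (158 and 142 against 657 and 431, log2 1.83, SE 0.30). No complement or Fc receptor gene (16 measured, median 0.07) was apart on its brightest probe set. C5ar1, the receptor for the chemoattractant complement fragment, measured 1706 and 2593 in wild type, against 4458 and 4329.7 with the knockout label (log2 1.06, SE 0.24).

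None of the metabolic, cell cycle or survival genes was 2-fold apart. Sterol, lipid and lysosome genes lay below 0 in 21 of 30 (median -0.14), with Lpl, lipoprotein lipase, at 7648 and 16713 against 2639 and 7019 (log2 -1.39, SE 0.56) and Apoc2, an activator of that enzyme, at 384 and 109 against 1258 and 708 (log2 2.21, SE 0.63). Glycolysis, hypoxia and mitochondrial genes lay above 0 in 16 of 23 (median 0.22), cell cycle genes in 14 of 23 (0.24) and apoptosis regulators in 9 of 16 (0.03). Without knockout-labelled 1 the glycolysis median was -0.10, with 14 of 23 below 0, and without knockout-labelled 2 it was 0.43 with 5 genes apart above. Pfkfb3, which raises glycolysis, measured 298 and 275 against 1237 and 403 (log2 1.30). Cdkn1a, a cell cycle inhibitor, measured 6725 and 9123 against 4171 and 5679 (log2 -0.69), and Pmaip1, a death-promoting BCL2 relative, 529 and 574 against 359 and 205 (log2 -1.02).

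Macrophage identity genes lay far above the floor on all 4 arrays, Cx3cr1 excepted (18.2 and 62.2 against 61.5 and 32.2), so the labelled cell type was borne out by its defining markers. The 13 measured markers summed to 104754 and 114187 in wild type, against 121732 and 124513 with the knockout label, with none 2-fold apart and a median of 0.06. Adgre1, the F4/80 antigen, measured 7886 and 7538 against 9357 and 11092, Cd68 15787 and 15895 against 17065 and 15969.8 and Csf1r 6177 and 10915 against 6817 and 10523. Markers of resident peritoneal macrophages were present as well, although the labels name no tissue: Timd4 measured 4609 and 6369 against 2281 and 4470.0 (log2 -0.76), Prg4 498 and 989 against 294 and 354 (log2 -1.12) and Gata6, near background, 71.5 and 114 against 67.6 and 92.4. Of 11 in that list 9 lay below 0 (median -0.51) and the sums were alike, since Saa3 makes up most of them (24583 and 23121 against 23314 and 23113).

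Mesothelial and stromal markers lay above 0 in 11 of 14 (median 0.48). Pdpn, podoplanin, also made by inflammatory macrophages, was the 1 member at least 2-fold apart (6118 and 4849 against 12532 and 12269.9; log2 1.19, SE 0.18). The collagen genes Col1a1 (147 and 140.3 against 239 and 862) and Col1a2 (386 and 374 against 496 and 1189.5) and Dcn, decorin (349.9 and 443 against 581 and 1049), were highest on knockout-labelled 2. The sums were 7989 and 6804 against 14968 and 17302, mostly Pdpn. The mesothelial markers Msln, Wt1 and Lrrn4 lay between 19.3 and 57.96 on all 4 arrays, and Upk3b was above the floor only on knockout-labelled 2. Red blood cell precursor genes were at or near the floor, with 1 of 4 measured, Car1, under the floor on both wild-type arrays and at 56.8 and 66.1 on the knockout-labelled ones. The part of stromal cells in the levels of Lox and Gja1 was not tested.

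**Figure D4:**
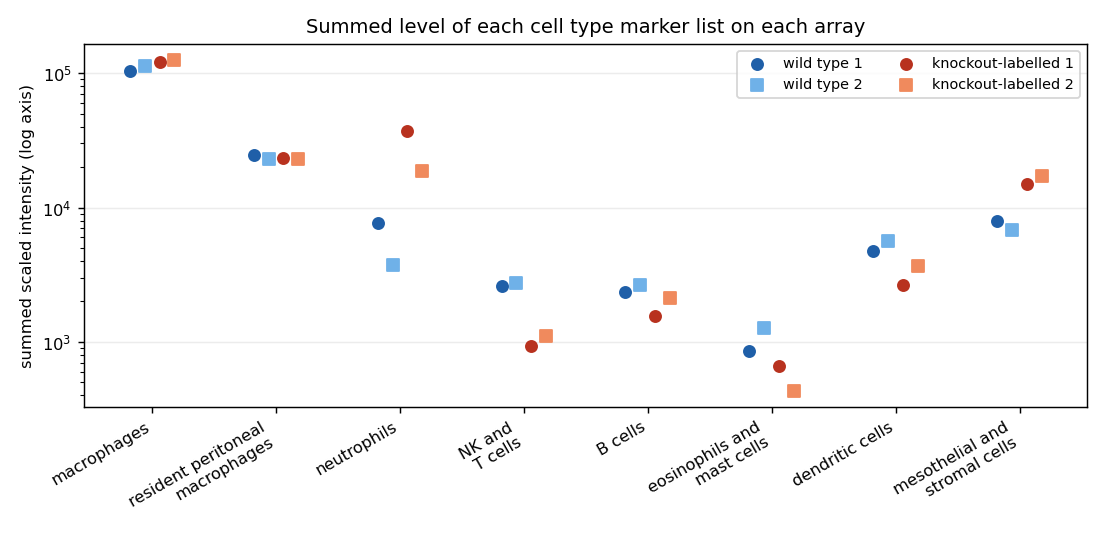
Summed scaled intensity (log axis) of each cell type marker list on the 4 arrays, circles and squares for arrays 1 and 2, blue for wild type and red or orange for knockout-labelled; red cell precursors are not drawn. Macrophage sums lie between 104754 and 124513. Neutrophil sums are highest on the knockout-labelled arrays, where most of them is Lcn2 and S100a8. NK and T cell and mast cell sums are highest on the wild-type arrays.

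The LPS pair shows which of these genes respond to LPS in wild-type macrophages. It has 1 array per condition and no test, and its arrays differ from the other 4 beyond LPS: Xist, the RNA of the inactive X chromosome, measured 1616 and 980.5 on the medium and LPS arrays and between 2.03 and 5.56 on the 4 arrays compared here. The Y-linked gene Eif2s3y measured 0.335 and 4.74 on the LPS pair and between 219 and 534 on the 4 arrays. Of the 66 genes at least 2-fold apart above wild type, 19 (28.8%) were at least 2-fold higher with LPS than with medium, beside 707 of 13934 genes (5.07%), and 7 (10.6%) were at least 2-fold lower, beside 845 (6.06%). Of the 44 genes below wild type, 11 were at least 2-fold higher with LPS and 5 (11.4%) at least 2-fold lower. At 4-fold the counts were 8 of 66 (12.1%) and 3 of 44 (6.82%), beside 164 genes (1.18%).

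The 8 LPS-induced genes above wild type were Ptges, Csf3, Gja1, Serpinb2, Lcn2, Acpp, U90926 and Rpusd3. U90926 measured 6.47 with medium and 582 with LPS, and between genotypes 12.2 and 87.2 against 208 and 585 (log2 2.77, SE 0.71). Acpp went from 3.90 to 329 in the LPS pair and measured 41.3 and 109.9 against 229 and 225 between genotypes. Rpusd3, a pseudouridine synthase of mitochondria, went from 30.2 to 142 and measured 33.5 and 29.4 against 105 and 85.2. The 3 below wild type were Ly6d, Armcx6 and Thbs4, of which Ly6d, a lymphocyte surface protein, was under the floor on both knockout-labelled arrays (at least 3.13-fold lower) and Thbs4, a matrix thrombospondin, measured 80.4 and 227 against 22.4 and 39.1.

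The LPS array of that wild-type pair lay at or beyond the nearer knockout-labelled array for 16 of the 66 genes and, on the log2 scale, nearer to the wild-type than to the knockout-labelled mean for 39. For the 44 genes below wild type these counts were 12 and 27. Some genes were lower with LPS than with medium in the LPS pair and lay above wild type on the knockout-labelled arrays: Ptger2 went from 389 with medium to 64.7 with LPS, and Ltb4r1 from 388 to 85.02. F13a1 measured 1613 and 1373 in the LPS pair, above the knockout-labelled arrays in both conditions.

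**Figure D5:**
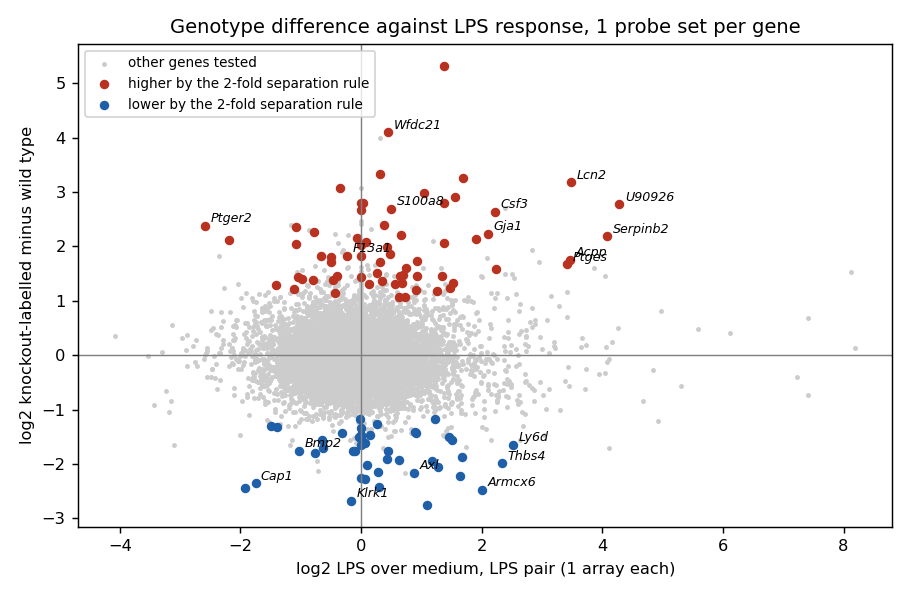
Log2 of LPS over medium in the LPS pair (1 array each, horizontal) against the log2 difference between knockout-labelled and wild-type arrays after LPS (vertical), 1 point per gene for 13934 genes; red and blue points are at least 2-fold apart above and below on all 4 arrays. Red and blue points lie on both sides of the vertical line at 0, with a group of red points beyond 2 on the horizontal axis that includes Lcn2, Serpinb2, Csf3 and Ptges.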

How the data were processed

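RNA of 4 macrophage samples was measured on 1 array each (total RNA extracted with TRIzol, biotinylated cRNA, per the labels' protocols). The authors deposited 1 intensity per probe set and array, not logged, made with MAS5 per the submitters' processing notes; its version and scaling target are not given in the sources used here. The mean trimmed by 2% at each end was 500 for the LPS pair but 95.5 to 107 for the other 4 arrays, so all were rescaled to a common one. Of 45101 probe sets 64 controls were left out; of the rest, 34945 name 1 gene, 932 several and 9160 none, by the platform annotation. RefSeq held 34741 of the single-gene identifiers and not 204.

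A floor was set at the 40th percentile pooled over the arrays, before log2. Probe sets that passed the floor on 2 or more of these 4 arrays entered the test with limma 3.58.1 in R 4.3.3 (lmFit, eBayes with trend; 2 residual and 3.68 prior degrees of freedom; two-sided), with Benjamini-Hochberg adjustment over all. Number of arrays limits the precision. Figures and counts used Python 3.11.15, pandas 2.3.3, numpy 2.4.6 and matplotlib 3.10.9. A fold against a group with both arrays under the floor is a lower bound. The fit was tested on simulated data with independent noise on each array. Same-numbered arrays here deviated together, so the simulation does not show how the fit behaves on them.

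Named genes were Trib1; the 15 genes a direction with the smallest p and the 10 with the widest gap among those at least 2-fold apart; genes with 2 probe sets apart; from each list every member apart, else the 3 smallest p; and every C/EBP target. Other genes were named after their values were seen. The 22 functional and 9 cell type lists, the rule and the comparison were chosen with earlier results of these data known. Alternatives were the deposited scale, quantile normalization, other floors, log2 of value plus 16, a looser filter, 1 probe set per gene, no trend, a 4-fold rule, a block, and leaving out each array.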

Additional observations from a re-analysis of the deposited data

How the results depend on the processing

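Limma gave 0 higher and 0 lower probe sets on the deposited scale, after quantile normalization, with either other floor (25th or 60th percentile), with log2 of the value plus 16, with the filter of 1 array, and with 1 probe set per gene and a prior without trend. With any 1 array left out it gave 5 to 36 higher and 0 to 32 lower, where the genotype with 1 array left is assumed to vary like the other. Arrays of the same number deviated from their group means together (r = 0.347 over 29078 probe sets), but the labels do not say that the number pairs them. With the number as a replicate block, limma gave 85 higher and 31 lower, of which 44 and 11 were also at least 2-fold apart. The count of probe sets at least 2-fold apart was 113 higher and 96 lower. It was 288 and 303 with the floor at the 25th percentile, 68 and 35 with the floor at the 60th percentile, 66 and 44 with 1 probe set per gene and 14 and 1 at 4-fold. It was 337 to 467 higher and 194 to 513 lower with 1 array left out, where the rule has fewer arrays to meet. As deposited it was 125 and 74, with quantile normalization 118 and 99, and with log2 of the value plus 16 it was 132 and 106. Signs were followed across settings for 130 genes, chosen mostly for a small p or for being apart by the rule. Of these, 127 kept their sign in every setting in which they were tested. Other genes named above, among them C/EBP targets such as Il6, were not in this set, so the count does not cover them. The log2 difference of Kit turned to 0.019 as deposited, 0.029 with quantile normalization, 0.54 with the floor at the 25th percentile, 0.29 with log2 of the value plus 16, 0.60 without wild type 2 and 0.49 without knockout-labelled 2 (lowest with 1 array left out, -0.64). That of Prg2 turned to 0.024 with quantile normalization and ran from -0.47 to 0.12, without knockout-labelled 2. That of Ngp ran from -0.38, without knockout-labelled 1, to 1.30, without knockout-labelled 2. The cause was not tested. In 84 of 1396 comparisons a named gene passed limma's threshold that it had not passed, 42 of them with the block. The medians of 10 of the 31 lists turned sign in some setting: cytokines, chemokines, glycolysis, alternative activation, apoptosis regulators, MAP kinase phosphatases, proteases, sterols and lipids, Toll-like receptors and the Tribbles list; as analysed these medians lay between -0.14 and 0.22.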
